A study of Mus musculus with 20 samples.

Results

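Collagens, laminins and integrins, the main chains of the extracellular matrix and the receptors that hold cells to it, were followed in the fetal mouse testis of 2 inbred strains and their hybrids. Members were the genes whose name on the array was Col, a number, a and a number, or Lama, Lamb or Lamc and a number, or Itga or Itgb and a number. The rule found 70 of 27962 named genes: 40 collagens, 11 laminins and 19 integrins, with 144 of 41174 probes. Each gene was read from its brightest probe. One member, Col10a1, was too dim to be tested, so 69 of 24057 tested genes were members. Lamb1 is listed on the array as Lamb1-1. Integrin chains with a letter in place of the number, or after it (such as Itga2b), and names such as Itgb1bp1 that only begin alike, were not members.

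The samples were gonad pairs of XY embryos at embryonic day 11.5, staged by tail somites, at the start of testis formation. There were 5 single pairs of each of 4 genotypes: C57BL/6J, 129S1/SvImJ and both reciprocal hybrids, labelled (B6x129S1)F1 and (129S1xB6)F1. The mesonephros had been removed from every gonad, and no group carried a mutation or a treatment. Each pair was hybridised in Cy5 on 1 two-colour array against a common Cy3 pool of XY gonads, XX gonads and whole embryos of both sexes whose parents were Sox9-ECFP(C57BL/6J) and CD-1 mice. The labels do not say which parent of a hybrid was the dam. Values below are log2 ratios of gonad to pool, so 1 unit is a doubling, and a difference between groups is a difference of these ratios. The design asks how the strains differ, where the hybrids lie between them, and whether the direction of the cross matters.

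As background, collagens are trimers of alpha chains. Some form fibrils, some decorate fibrils, and collagen IV builds the network of basement membranes. Laminins are trimers of an alpha, a beta and a gamma chain and form the other network of that membrane. Integrins are pairs of an alpha and a beta chain, and the pair sets which matrix protein a cell binds. In the fetal testis a basement membrane forms around the cords in which supporting cells enclose the germ cells, and endothelial cells enter from the mesonephros.

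The share of gene probes whose Cy5 signal was well above background ran from 77.9% to 88.0% over the 20 arrays, and 62 of the 70 members were above background on all of them. No member was saturated. Gonad markers stood above the pool (median log2 ratio of Wt1 4.32, Gata4 2.52, Nr5a1 2.08, and the germ cell gene Dppa3 6.19). Of the markers of mesonephric tubules and ducts, Pax2 read -0.28, Cdh16 -0.18 and Pax8 0.67. The mean of all 5 tested markers of that list, with Emx2 and Lhx1, was above the pool on every array. It ran from 0.23 to 0.91 in C57BL/6J and from 0.04 to 0.54 in 129S1/SvImJ. In the hybrids it ran from 0.02 to 0.56 in (B6x129S1)F1 and from 0.18 to 1.54 in (129S1xB6)F1. Since Pax2 and Cdh16 lay below the pool, this mean is no measure of mesonephric tissue by itself. Whether the Emx2 and Lhx1 signal came from ducts or from the gonad itself was not tested. Fewer cells of a type and less RNA per cell cannot be told apart in whole gonads. The p-values measure the spread between these gonad pairs, which the main fit treated as independent. By the series description each group came from several litters, but the labels do not say which pairs shared one. Many pairs of a group share the letter of their sample name (H for all C57BL/6J pairs but K2), and no letter occurs in different groups. Whether a letter marks a litter is not stated. With the letter as a random block the correlation within a letter was 0.14.

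The probes on which the strain results turn are shown by the first 30 of their 60 bases, 5′ to 3′, as deposited with the array design. The pairs for Itgb3, Itga4 and Col4a4 are shown because the probes of those genes gave different answers. No capitals are used, since no base in them was singled out.
Itga9, its only probe: taccttcagctttgtgtagccaaaaaagcc
Itgb3, brightest: ccacagcaacatcagagtctttgtccattt
Itgb3, other probe: tgggactctctgccattatgtttacagagg
Itga4, brightest: aacttcttcaagctgatatgggcgttgaga
Itga4, other probe: actaacagtatccttcctttgtttactttg
Col4a4, brightest: tacatgtggagttgctcccccttctccttt
Col4a4, other probe: atgaagttgtgtgtatgtatgtattacgtg
Over their full length the probes of each of these pairs share no run longer than 5 bases, so they read different stretches of sequence. Their places in the transcripts were not determined here.

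Against the pool of gonads and whole embryos, the members spread widely. Of 69 members, 9 (13.0%) had a median ratio above 1 on the log2 scale and 7 (10.1%) were below -1, beside 5.71% and 5.36% of all genes tested. The integrin alpha chain Itga8, a receptor known from kidney formation, was the highest, with a median of 2.99 (7.93-fold) and a range of 2.44 to 3.44 over the 20 arrays. Its other probes read 2.75 and 0.80, so the level depends on the probe while the side does not. Itgb5 (1.86, range 1.32 to 2.21) and Itga6 (1.14, range 0.55 to 1.79) followed among integrins and were above the pool on all 20 arrays. The lowest integrins were Itga4 at -1.97, Itga5 at -0.74 and Itga7 at -0.73. With probes averaged, Itga4 read -0.69, Itga7 -0.28 and Itga6 0.88, so these levels depend on the probe too. Under normexp background correction Itga4 read -1.55 and Itga7 -0.24.

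Among laminins, Lamb1 stood highest at 1.11 (0.74 to 1.51 over the 20 arrays), with Lamb2 at 0.65 and Lama4 at 0.61. Its common partner Lamc1 lay at the pool's level, at -0.10. Lama2, the laminin chain of muscle, was lowest at -1.51, and Lamb3, a chain of skin laminin, was at -0.24. The fibril-forming collagens were mostly below the pool: 9 of 11 had a median below 0, and the median of the class was -0.60. Col2a1, the main cartilage collagen, read -2.55 (5.84-fold higher in the pool), and Col9a1, which coats its fibrils, read -2.54. Both were below 0 on all 20 arrays, and with its probes averaged Col2a1 read -1.81. Col8a1 was at -1.86. The highest collagens were Col9a3 at 1.34, Col14a1 at 1.24 and Col16a1 at 1.16, all fibril-associated. Col9a3 ran from -1.32 to 3.05, so its place above the pool did not hold on every array.

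**Figure D1:**
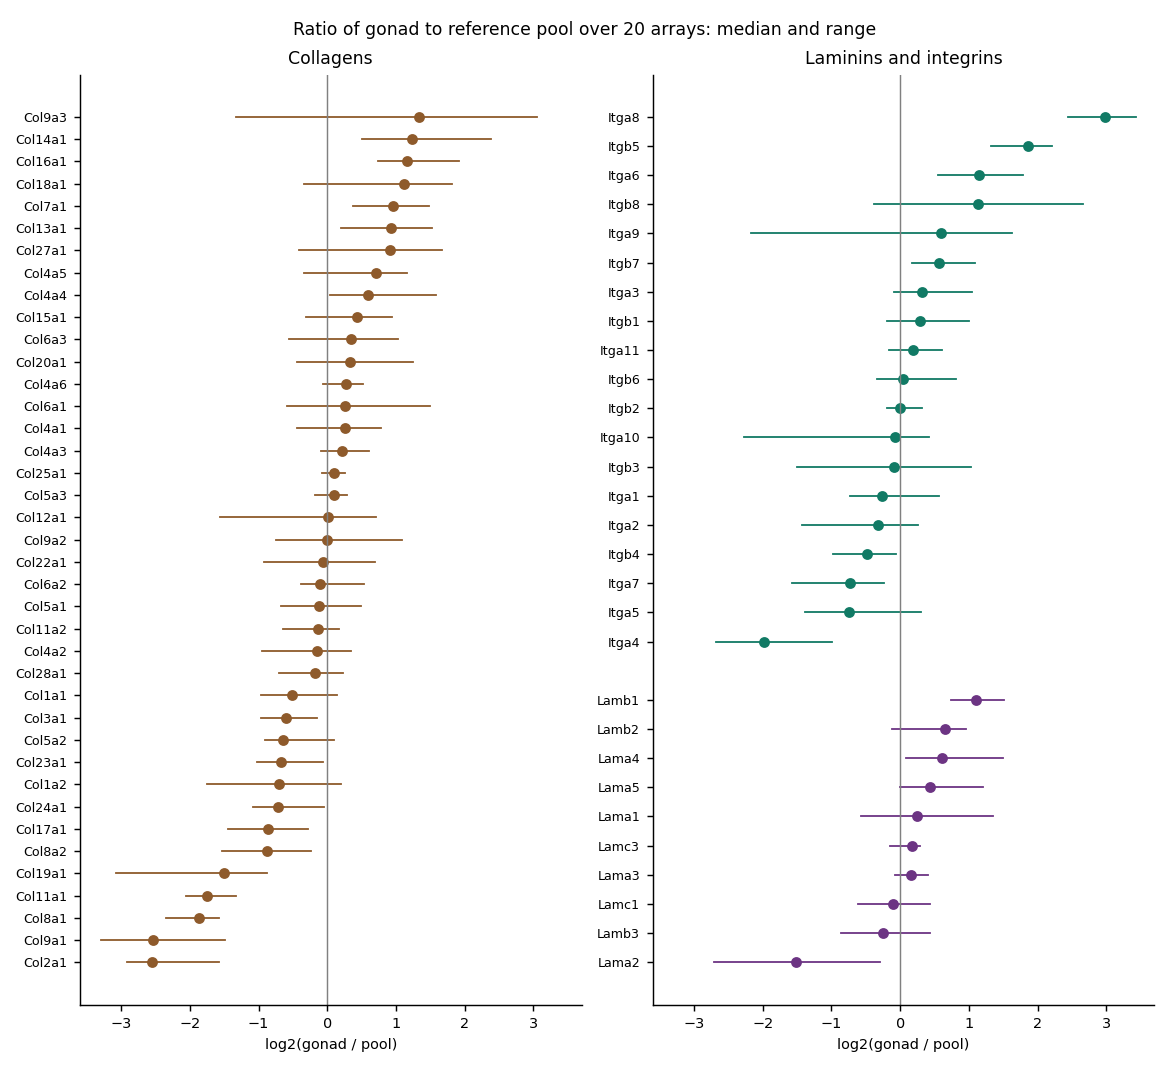
Median log2 ratio of gonad to reference pool for the members shown (point) with the lowest and highest of the 20 arrays (line), by family. Itga8 is highest at 2.99 and Col2a1 lowest at -2.55, and Col9a3 has the longest line.

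Between the strains, 10 of 69 members differed: their ratios in C57BL/6J and 129S1/SvImJ were apart at an adjusted p under 0.05 (limma, Benjamini-Hochberg over all genes tested), where 5.56% of all genes did. C57BL/6J was higher for Itgb3, Col12a1, Lama5 and Itga6, and 129S1/SvImJ was higher for Itga9, Col20a1, Itga4, Col4a4, Col23a1 and Col24a1. That is 4 in the first direction, beside 3.25% of all genes, and 6 in the second, beside 2.31%. By family, 5 of 39 collagens, 1 of 11 laminins and 4 of 19 integrins passed. At an unadjusted p under 0.05 the count was 19 of 69, beside 14.8% of all genes. Over all members 33 differences were above 0 and 36 below, beside 53.5% above 0 for all genes, and the median was -0.01 beside 0.01. For 52 of the 69 members the 95% interval of the strain difference lay within 1 log2 unit of 0 on both sides. In 10 members no array of one strain overlapped the other strain, beside 5.26% of all genes: 9 of the members that passed, and Itgb2, a leukocyte chain with a small difference of 0.19 (adjusted p = 0.238).

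**Figure D2:**
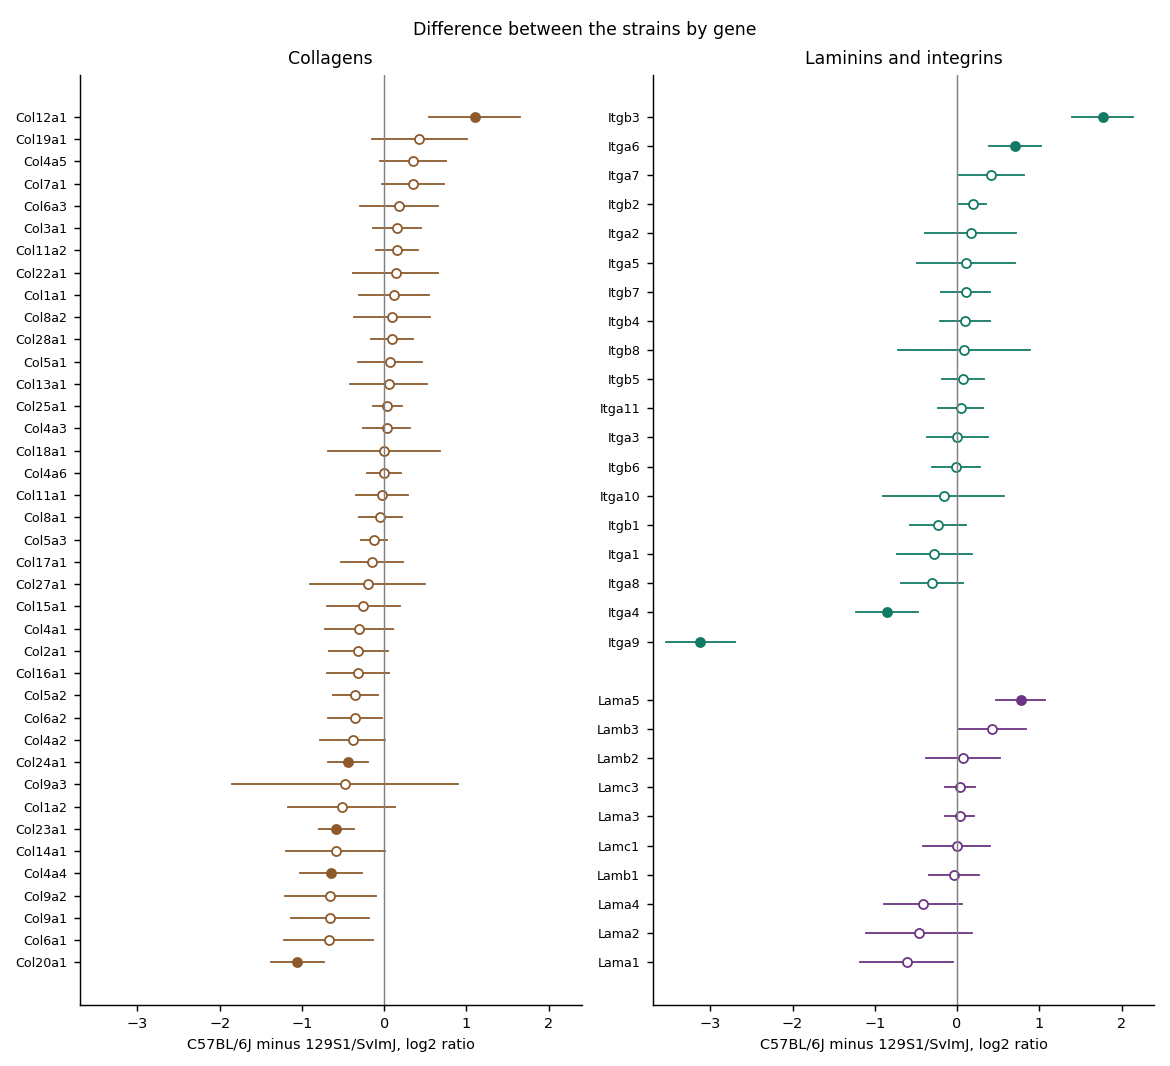
Difference C57BL/6J minus 129S1/SvImJ in log2 ratio for the members shown, each with its 95% interval, by family, with filled points for the 10 members at an adjusted p under 0.05. Itga9 at -3.12 and Itgb3 at 1.77 lie far from the rest.

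Itga9 gave the largest strain difference of the members. Its product pairs with the Itgb1 chain to form a receptor for tenascin and other ligands. The 5 C57BL/6J arrays read -1.73, -2.11, -1.87, -1.20 and -2.17. The 5 129S1/SvImJ arrays read 0.94, 1.36, 1.56, 1.63 and 1.05. Every 129S1/SvImJ gonad was above the pool and every C57BL/6J gonad below it, with no value between -1.20 and 0.94. The difference was -3.12 ± 0.20 (SE, n = 5 per strain), or 8.71-fold higher in 129S1/SvImJ, with limma's adjusted p = 1.53e-09. Within the 4 slides that held both strains it was -3.08, -3.47, -3.73 and -2.25. The hybrids read 1.01, 0.86, 0.66, 0.23 and 0.73 in (B6x129S1)F1 and 0.60, -0.02, 0.60, 0.30 and -0.16 in (129S1xB6)F1. All hybrids were above every C57BL/6J array.

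Itgb3, the beta chain of the vitronectin receptor and of the platelet fibrinogen receptor, went the other way. C57BL/6J read 0.46, 0.69, 0.31, 1.03 and 0.69, and 129S1/SvImJ read -1.51, -1.21, -1.36, -0.49 and -1.10. The strains did not overlap. The difference was 1.77 ± 0.18 (SE), 3.41-fold higher in C57BL/6J, with limma's adjusted p = 1.05e-06, and it was 1.39 to 2.13 within the 4 slides. This holds for the brightest probe alone: the other Itgb3 probe, almost as bright (mean Cy5 signal 3121 against 3487), gave 0.00 ± 0.14. Markers of platelets, which carry the Itgb3 product, were also on the C57BL/6J side. Of 5 listed, 3 were on the array, and 3 of 3 had a difference above 0 (median 0.75), beside 53.5% of all genes. Of these, 1 passed, beside 5.56% of all genes: Treml1 (0.97, limma's adjusted p = 0.016, but 0.070 with the sample letter as a block). The summed Cy5 signal of the 3 markers ran from 5184 to 12599 in C57BL/6J and from 3334 to 4658 in 129S1/SvImJ. Itga2b, the platelet partner of Itgb3, differed by 0.57 ± 0.33 (adjusted p = 0.476). The part of platelets in the Itgb3 difference was not tested.

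Itga4, an alpha chain for vascular cell adhesion molecule and fibronectin, lay far below the pool in all groups on its brightest probe. With its probes averaged the median over arrays was -0.69. C57BL/6J read -2.29, -2.11, -2.63, -2.03 and -2.50, and 129S1/SvImJ read -1.40, -1.66, -0.99, -1.28 and -1.97. The 129S1/SvImJ values were higher without overlap, by 0.85 on the log2 scale (-0.85 ± 0.18, SE, 1.81-fold, limma's adjusted p = 0.00532). Within slides the difference ran from -1.51 to -0.06. The other 4 probes tested for Itga4 gave 0.15, 0.05, -0.06 and -0.14, so the difference was seen on 1 of its probes. Itga6, an alpha chain of laminin receptors that is also found on germ cells, read 1.37, 1.77, 1.79, 1.51 and 1.63 in C57BL/6J and 0.55, 0.93, 0.83, 0.86 and 1.36 in 129S1/SvImJ. All C57BL/6J values were above those of 129S1/SvImJ, the nearest by a narrow margin (1.37 against 1.36). The difference was 0.71 ± 0.15 (SE, 1.63-fold, limma's adjusted p = 0.00592), and the other Itga6 probes gave 0.87 and 0.27. Markers of germ cells went the other way: 5 of 6 were below 0 and 0 passed, and their mean log2 ratio ran from 1.95 to 2.63 in C57BL/6J and from 2.44 to 2.80 in 129S1/SvImJ. Their part in the Itga6 difference was not tested.

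The rest of the integrins gave no call. Of the collagen-binding alpha chains (Itga1, Itga2, Itga10, Itga11) 0 of 4 passed, with differences from -0.28 to 0.16. Itgb1, the chain that pairs with most alpha chains, differed by -0.23 (95% interval -0.57 to 0.11), and Itga8 by -0.31 (-0.69 to 0.07). Itga7, the muscle laminin receptor chain, differed by 0.42 with an adjusted p of 0.300 (19 arrays, since 1 spot was an outlier); its sign turned with other background correction and with the mean over its probes, at -0.01 and -0.06.

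Of the laminins, Lama5 passed. This alpha chain is widespread in the basement membranes of epithelia and vessels. C57BL/6J read 1.09, 1.20, 0.84, 0.59 and 0.79, and 129S1/SvImJ read -0.0024, 0.24, 0.11, 0.28 and 0.02. Every C57BL/6J gonad exceeded every 129S1/SvImJ gonad. The difference was 0.77 ± 0.14 (SE, 1.71-fold, limma's adjusted p = 0.00167), and 0.56 to 0.96 within slides. The hybrid means were 0.36 ± 0.21 (SD, n = 5) in (B6x129S1)F1 and 0.67 ± 0.30 (SD, n = 5) in (129S1xB6)F1, both between the strains. Lama1, the early embryonic alpha chain, differed the other way by -0.61 (95% interval -1.18 to -0.05, adjusted p = 0.278), and passed only when all its probes were averaged (-0.81, adjusted p = 0.043). Lama4 differed by -0.42 and Lamb3 by 0.43, and neither passed. The chains Lamb1 and Lamc1 that the common laminins share did not pass, with differences near 0 and 95% intervals of -0.34 to 0.27 and -0.41 to 0.40.

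Collagen differences were more often on the 129S1/SvImJ side. Of 39 tested, 15 had a difference above 0 and 24 below, beside 53.5% above 0 for all genes. The median was -0.12 beside 0.01 for all genes. Of the 39, 5 passed, and 4 of these were higher in 129S1/SvImJ, as were 2.31% of all genes. Among the 4, Col4a4 and Col24a1 went the other way on their other probe (0.34 and 0.16). The fibril-associated class held the largest of the collagen differences. Its median was -0.48, and 2 of 9 passed, in opposite directions. Col20a1 read -0.22, -0.45, -0.33, -0.34 and 0.06 in C57BL/6J and 0.92, 0.74, 0.66, 1.25 and 0.43 in 129S1/SvImJ, without overlap (-1.06 ± 0.16, SE, 2.08-fold, limma's adjusted p = 0.000129). Col12a1, a tension-bearing collagen of dense connective tissue, read 0.56, 0.44, 0.71, 0.49 and 0.35 in C57BL/6J and -1.57, 0.23, -0.59, -0.26 and -0.79 in 129S1/SvImJ. The C57BL/6J values lay close together while those of 129S1/SvImJ spread widely, still without overlap (1.10 ± 0.26, SE, 2.15-fold, limma's adjusted p = 0.0140). Its only probe was dim, with a mean Cy5 signal of 116 beside array medians of 312 to 519. Under 11 alternative settings the Col12a1 difference ran from 0.13 to 1.10 and passed in 10. That of Col20a1 ran from -1.09 to -0.26 and passed in all 11, so both sizes depend on the processing. Members of the collagen IX trimer, Col9a1 (-0.66, adjusted p = 0.117) and Col9a2 (-0.65, adjusted p = 0.210), were on the 129S1/SvImJ side and did not pass. Each passed in only 1 of the 11 alternative settings, with array weights (-0.87 and -0.83, limma's adjusted p = 0.015 and 0.033).

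The other collagens that passed gave smaller differences. Col23a1, a transmembrane collagen, read -0.63, -0.92, -0.80, -1.02 and -0.64 in C57BL/6J and -0.07, -0.29, -0.45, -0.16 and -0.12 in 129S1/SvImJ. The strains did not overlap (-0.58 ± 0.10, SE, 1.50-fold, limma's adjusted p = 0.000887), and its other probes gave -0.74 and -0.49. Col24a1, a fibrillar collagen of bone, read -0.93, -1.04, -0.86, -1.08 and -0.58 in C57BL/6J and -0.55, -0.56, -0.54, -0.57 and -0.05 in 129S1/SvImJ. The strains nearly met, at -0.58 and -0.57. The difference was -0.44 (1.36-fold, limma's adjusted p = 0.0255) with 0.16 on its other probe. Without 129S1/SvImJ pair G3 it was -0.34 (adjusted p = 0.062), and without C57BL/6J pair H1, H2 or H4 it was -0.44, -0.41 or -0.40 (adjusted p = 0.055, 0.073 and 0.067).

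Collagen IV, the basement membrane collagen, gave 1 call in 6 chains. Col4a4, a chain of the glomerular form, read 0.55, 0.10, 0.54, 0.04 and 0.15 in C57BL/6J and 1.58, 0.67, 0.72, 1.18 and 0.48 in 129S1/SvImJ. The groups overlapped, since the lowest 129S1/SvImJ value lay below the 2 highest C57BL/6J values. The difference was -0.65 ± 0.18 (SE, 1.57-fold, limma's adjusted p = 0.0385), and its other probe gave 0.34. The call was lost without 129S1/SvImJ pair A3 (-0.49, adjusted p = 0.101) or D4 (-0.59, adjusted p = 0.103), and without C57BL/6J pair H2 (-0.60, 0.099), H4 (-0.59, 0.090) or K2 (-0.62, 0.086). The ubiquitous chains Col4a1 and Col4a2 differed by -0.31 (95% interval -0.72 to 0.11) and -0.38 (-0.78 to 0.01). Among the collagen VI chains, Col6a1 (-0.68, adjusted p = 0.175) and Col6a2 (-0.36, adjusted p = 0.269) did not pass, and of the abundant fibril formers Col1a1 differed by 0.12, Col3a1 by 0.16 and Col5a2 by -0.35 (adjusted p = 0.160).

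**Figure D3:**
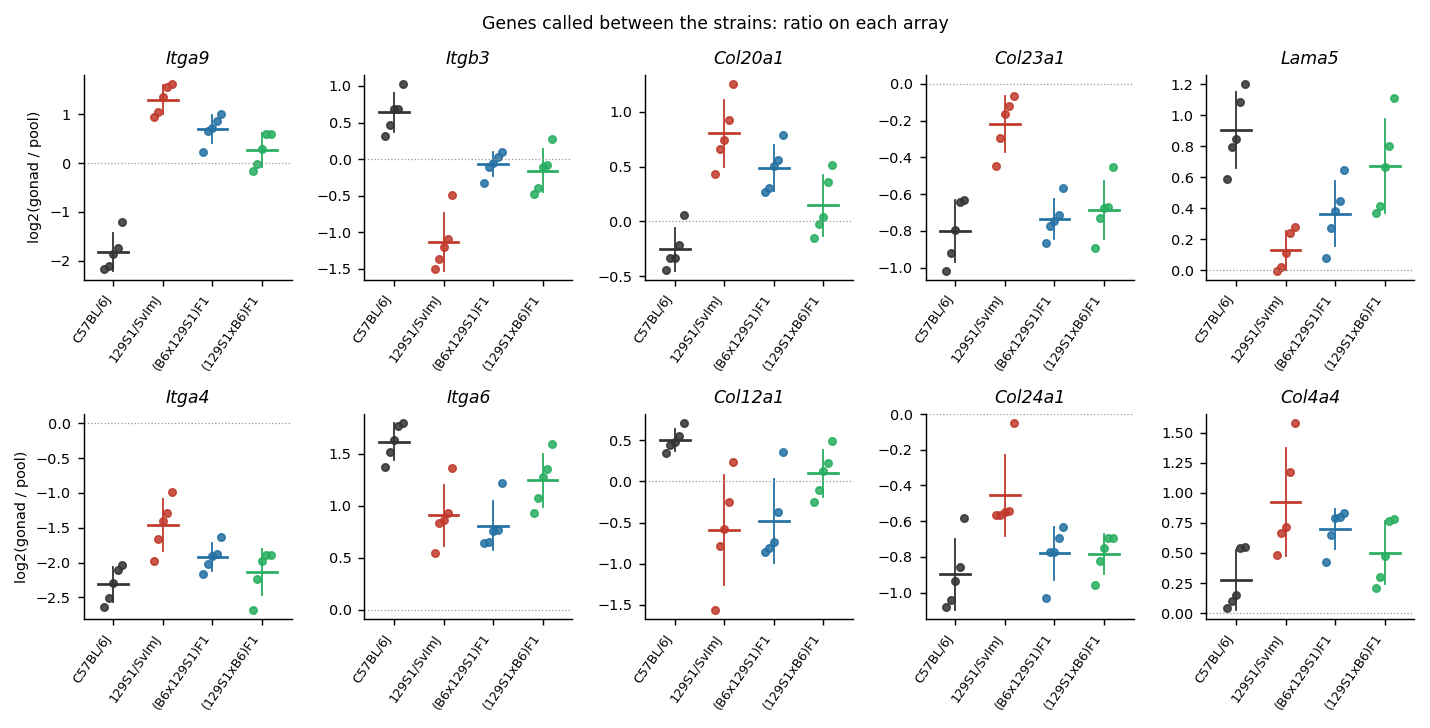
Log2 ratio of gonad to pool on each of the 20 arrays (points) for the 10 members that differed between the strains, with the mean ± SD of each genotype (n = 5). Both hybrid means lie between the strain means for 9 of the 10, which were picked for their strain difference. The C57BL/6J and 129S1/SvImJ points are farthest apart for Itga9.

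The strain difference had the same sign within all 4 slides that held both strains for 10 of the 10 members that passed. For the 9 whose strains do not overlap no other outcome was possible, so only Col4a4 could have differed. The slides are therefore no separate evidence for these calls. The strain difference rested on 1 probe where the gene had only 1 (4 of the 10) and differed between probes for others. Besides Itgb3, where the second probe read 0.00, the tested probes disagreed in sign with a size over 0.5 on at least 1 of them for 3 members: Itga4, Col4a4 and Col4a6. For Col4a6 the brightest probe gave -0.01.

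**Figure D4:**
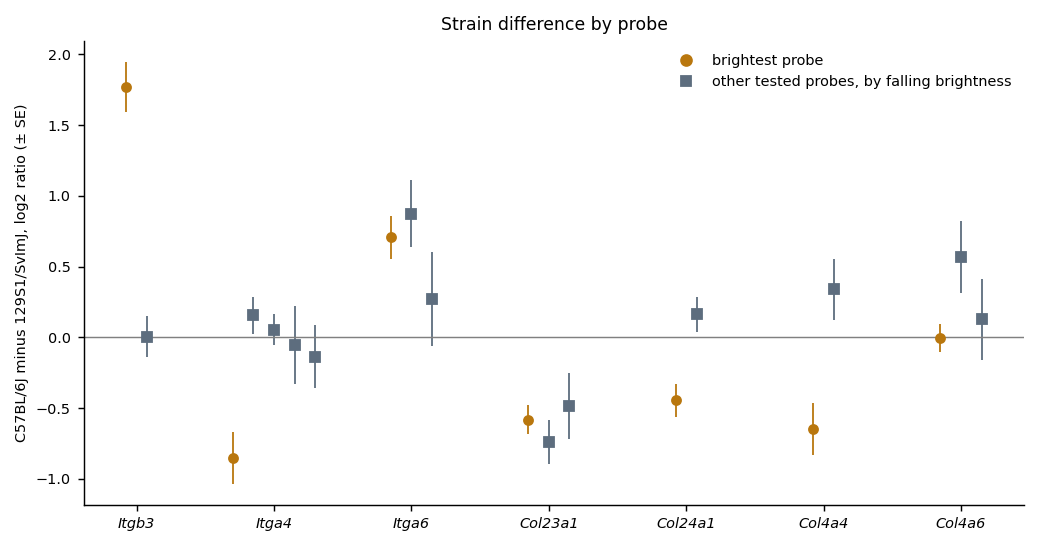
Strain difference C57BL/6J minus 129S1/SvImJ (log2, ± SE) on each tested probe of 7 members that have several, with the brightest probe marked. For Itgb3 the brightest probe lies at 1.77 and the other at 0.00, while the Col23a1 probes all lie below 0.

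The hybrids were set against each strain and against the mean of both, taking both directions of the cross together (n = 10). These comparisons share arrays with each other and with the strain comparison, so their values are given side by side and not as independent evidence. Against C57BL/6J 4 of 69 members passed, beside 2.11% of all genes: Itga9 was higher in the hybrids by 2.30 ± 0.17 (SE, limma's adjusted p = 9.08e-08) and Col20a1 by 0.57 ± 0.13 (0.0249). In the hybrids Itgb3 fell by 0.75 (-0.75 ± 0.15, adjusted p = 0.00859) and Itga6 fell by 0.59 (-0.59 ± 0.13, adjusted p = 0.0162). The Itgb3 value rests on its brightest probe here too, and with its probes averaged it was -0.26 (adjusted p = 0.247). Col20a1 did not pass under normexp background correction (0.34, adjusted p = 0.140) or without background subtraction (0.12, 0.155). With the sample letter as a block neither Col20a1 (0.54, adjusted p = 0.130) nor Itga6 (-0.59, 0.067) passed, and Itga6 did not with its probes averaged (-0.58, 0.061). Against 129S1/SvImJ 3 of 69 passed, beside 1.64% of all genes. Itgb3 was higher in the hybrids by 1.02 ± 0.15 (limma's adjusted p = 0.000617), Itga9 was lower (-0.83 ± 0.17, adjusted p = 0.0141) and Col23a1 was lower (-0.49 ± 0.09, adjusted p = 0.00385).

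Both hybrid means lay between the strain means for 9 of the 10 members that differed between strains, Itga6 being the other. These members were picked for strain means far apart on the same arrays, which by itself favours hybrid means between them. The share among all genes that differed was not counted. For Itgb3 the 4 means were 0.64 ± 0.27 in C57BL/6J, -0.07 ± 0.17 in (B6x129S1)F1, -0.16 ± 0.30 in (129S1xB6)F1 and -1.13 ± 0.39 in 129S1/SvImJ (SD, n = 5 each), so the hybrids sat close to the middle. For Itga9 they were -1.82 ± 0.39, 0.70 ± 0.29, 0.26 ± 0.35 and 1.31 ± 0.30 in the same order. Its hybrids lay nearer to 129S1/SvImJ, and it was the 1 member of 69 to pass against the mean of the strains, where 0.324% of all genes did (0.73 ± 0.14, limma's adjusted p = 0.0243). On the linear scale the picture was different. The log2 of the mean of the strains' linear ratios was 0.46 for Itga9, beside 0.48 for the hybrids and -0.25 for the midpoint on the log2 scale, so the hybrids lay close to the linear midpoint. For Col23a1 the hybrids (-0.73 and -0.69) sat by C57BL/6J (-0.80) rather than 129S1/SvImJ (-0.22), and against the mean of the strains the difference of -0.20 did not pass (adjusted p = 0.407).

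Some of these hybrid calls rested on single pairs. The Itga9 call against the mean of the strains was lost without any 1 of the pairs L4, M3, C4, A3, G3, H2 and H3 (0.69 to 0.74, adjusted p = 0.051 to 0.064), and Itgb7 joined it without E1 (0.42, adjusted p = 0.023). Against 129S1/SvImJ, Itga9 was lost without D4 (-0.75, adjusted p = 0.061). Against C57BL/6J, Itga6 was lost without H2 or H3 (-0.55 in both, adjusted p = 0.066 and 0.070), and Col20a1 without H1, H2, H3 or H4 (0.52 to 0.58, adjusted p = 0.055 to 0.099). The counts ran from 2 (without H2 or H3) to 7 (without E1) against C57BL/6J, reached 5 against 129S1/SvImJ without G3, and ran from 0 to 2 against the mean of the strains. With slide in the model Itga9 lost both its call against 129S1/SvImJ (-0.68, adjusted p = 0.153) and that against the mean of the strains (0.88, adjusted p = 0.077). The same fit also ended the calls of Col23a1 against 129S1/SvImJ (-0.38, adjusted p = 0.094) and of Itga6 (-0.66, adjusted p = 0.067) and Col20a1 (0.66, adjusted p = 0.064) against C57BL/6J. Any difference among the 4 groups, by limma's F test, was called for 8 of 69 members, beside 3.79% of all genes: 3 collagens, 1 laminin and 4 integrins. Of 6 germ cell markers, 1 passed as higher in the hybrids against C57BL/6J, beside 2.11% of all genes in either direction. Against 129S1/SvImJ 1 also passed as higher, beside 1.64%. Above 0 were 6 of 6 against C57BL/6J, beside 51.3% of all genes, and 5 of 6 against 129S1/SvImJ, beside 55.1%.

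Between the reciprocal hybrids no member passed: 0 of 69 in limma's fit, beside 0.00831% of all genes (2 genes). At an unadjusted p under 0.05 there were 12 of 69, beside 3.66% of all genes, and 46 members were above 0 and 23 below (median 0.06), beside 56.6% above 0 and a median of 0.02 for all genes. In 61 of 69 the 95% interval of the difference lay within 1 log2 unit of 0. The smallest p was that of Itga11, a collagen receptor chain of mesenchyme. (B6x129S1)F1 read 0.61, 0.53, 0.34, 0.29 and 0.56, and (129S1xB6)F1 read -0.08, -0.12, 0.24, 0.15 and -0.05. The groups did not overlap, as in 0.669% of all genes, and the difference was 0.44 (unadjusted p = 0.00295, limma's adjusted p = 1.00). Itga7 differed by 0.54, Itga6 by -0.44 and Lama5 by -0.31, at adjusted p = 1.00 each.

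Several of the 12 were collagens known from cartilage, which were picked out here after their values were seen. Col9a1 was higher in (B6x129S1)F1 by 0.66 (95% interval 0.18 to 1.13), Col2a1 by 0.46 (0.10 to 0.82), Col27a1 by 0.75 (0.05 to 1.45), Col9a2 by 0.59 (0.04 to 1.14) and Col9a3 by 1.40 (0.02 to 2.77). Col11a1 and Col11a2, also cartilage collagens, differed by 0.01 (-0.30 to 0.32) and -0.09 (-0.34 to 0.17). Col9a3 read 2.13, 2.27, 3.05, 1.03 and 2.98 in (B6x129S1)F1 and 1.80, 1.36, -0.11, -0.33 and 1.76 in (129S1xB6)F1. The groups overlapped through pair E1, the lowest of its group. Within the slides numbered 2 to 5 the difference in Col9a3 was 3.09, 0.91, 0.33 and 1.32, that in Col9a1 1.47, 0.47, 0.28 and 0.53, and that in Col2a1 1.21, 0.20, 0.12 and 0.39. All were above 0, and for each gene slide 2 gave the largest value. The slides are no separate evidence here either, since these genes were picked for a difference on the same arrays. Values within slides are not given for Col27a1 and Col9a2. Of the supporting cell markers 5 of the 7 tested were above 0, beside 56.6% of all genes, with values between -0.34 and 1.82, and 0 passed. Their mean log2 ratio ran from 2.34 to 2.71 in (B6x129S1)F1 and from 1.64 to 2.58 in (129S1xB6)F1. Of the cartilage markers 6 of 6 were above 0, between 0.08 and 0.20, and 0 passed. Neural crest markers were also above 0 in 4 of 4, between 0.08 and 0.52. Of the mesonephros and duct markers 2 were above 0 and 3 below, with a median of -0.34 and a lowest value of -1.43. Their mean log2 ratio ran from 0.02 to 0.56 in (B6x129S1)F1 and from 0.18 to 1.54 in (129S1xB6)F1. In both lists 0 passed. The part of any of these lists in the collagen values was not tested.

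Genes that build, cut or use this matrix were read in the same limma fit, where 5.56% of all genes differed between the strains. Of 33 other matrix and basement membrane genes 3 passed: Thbs1 (thrombospondin, 0.84, adjusted p = 0.029) and Egfl6 (0.42, 0.025) were higher in C57BL/6J, and Smoc2 (-0.94, 0.032) was higher in 129S1/SvImJ. These calls were close to the threshold: leaving out 1 array ended that of Thbs1 for A3, A4, A6, H2, H3, H4 or K2 (0.68 to 0.85), that of Smoc2 for A4, A6, D4, H1, H2, H3 or H4 (-0.94 to -0.82) and that of Egfl6 for A3, A4, A6, H2 or H3 (near 0.38). Under normexp none of the 3 passed (0.63, -0.77 and 0.21). The median of that list was -0.04, with 15 above 0 and 18 below. Of 25 genes of collagen synthesis and crosslinking 1 passed, the lysyl oxidase Loxl4 (0.70, adjusted p = 0.037). It did not pass under normexp (0.21, adjusted p = 0.362), without background subtraction (0.09, adjusted p = 0.194), or without A3, A4, A6, G3, H3 or K2 (0.53 to 0.73). Of 28 matrix proteases and inhibitors 2 passed, both higher in 129S1/SvImJ: the aggrecanase Adamts5 (-0.96, 1.94-fold, adjusted p = 0.001, but 0.101 with its probes averaged, at -0.63) and the gelatinase Mmp2 (-0.89, 1.86-fold, adjusted p = 0.006). Of 38 integrin partners 2 passed, the syndecans Sdc4 (1.59, adjusted p = 0.009) and Sdc2 (0.42, adjusted p = 0.017). The Sdc4 difference was not seen over all its probes, whose mean gave -0.04, nor did it pass in the authors' deposited log2 table (1.20, adjusted p = 0.347) or with array weights (1.15, adjusted p = 0.088). The Sdc2 call was lost without A3 (0.36, adjusted p = 0.051) or K2 (0.37, adjusted p = 0.052).

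Markers of other cell types were read in that fit. None passed between strains among supporting cells (0 of 7), germ cells (0 of 6), endothelium (0 of 8, 7 of them below 0, median -0.23), macrophages (0 of 7), erythroid cells (0 of 5), mesenchyme (0 of 7), neural crest (0 of 4) or skin (0 of 3). Of the mesonephros and duct list 2 of 5 passed in opposite directions, Emx2 (1.04, adjusted p = 0.010) and Lhx1 (-0.61, adjusted p = 0.009), and of the cartilage list 1 of 6, Hapln1 (-0.95, adjusted p = 0.003). With Hapln1 included, the cartilage list had 3 above 0 and 3 below. The Lhx1 call was lost with its probes averaged (-0.62, adjusted p = 0.113).

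Pairs of chains were compared over the 20 arrays as deviations from their group means, for 7 pairs. They were picked as chains assembled together or genes lying head to head, except Col3a1 with Col5a2, picked as neighbouring genes. These points share the pool and the array, so they include any error of an array. Col1a1 and Col1a2, the chains of collagen I, moved together (Pearson r = 0.66, Spearman rho = 0.71, adjusted p = 0.011 by permutation within groups). Without the 2 arrays farthest out r was 0.62. The laminin chains Lamb1 and Lamc1 also moved together (r = 0.63, rho = 0.67, adjusted p = 0.030 by permutation), with r = 0.48 without the 2 farthest arrays. Leaving out 1 pair ended the first call without L4 (r = 0.60, adjusted p = 0.053) and the second without L4, M6, C2, A3 or D4 (r = 0.53 to 0.61). With the slide mean also taken out, Lamb1 with Lamc1 gave r = 0.57 and no longer passed (adjusted p = 0.066 by permutation).

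The other 5 pairs did not pass. Col4a1 and Col4a2, which are transcribed from a shared promoter region, gave r = 0.52 (rho = 0.45, adjusted p = 0.073 by permutation), and 0.29 without the 2 farthest arrays. Col4a5 and Col4a6, also arranged head to head, gave r = -0.55 (rho = -0.47, adjusted p = 0.091 by permutation), which fell to -0.33 in the same way. Itga6 with Itgb1 gave 0.38 (adjusted p = 0.199), Col4a3 with Col4a4 -0.18 and Col3a1 with Col5a2 -0.18 (adjusted p = 0.470 for both, all by permutation).

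**Figure D5:**
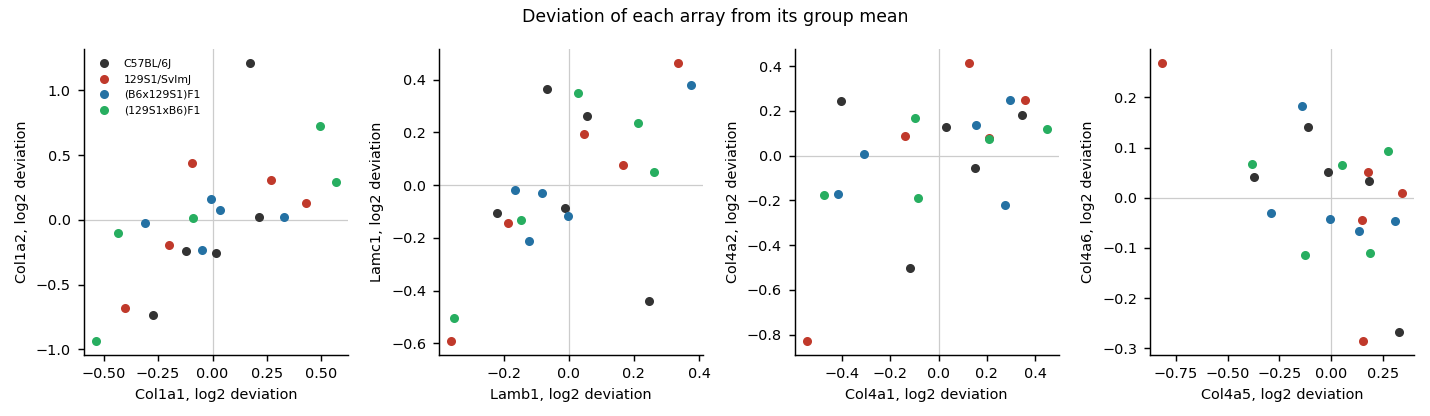
Deviation of the log2 ratio from its group mean on each of the 20 arrays for 4 pairs of chains, one chain on each axis, coloured by genotype. Points rise together for Col1a1 with Col1a2 (r = 0.66) and Lamb1 with Lamc1 (r = 0.63), and the Col4a5 with Col4a6 relation (r = -0.55) leans on the outermost arrays.

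Members varied between gonad pairs of 1 genotype by a median SD of 0.30, beside 0.24 for all genes. Col9a3 varied most (SD 1.14), with values from -1.32 to 2.41 among the 5 129S1/SvImJ pairs alone. The next collagens were Col27a1 (0.57) and Col18a1 (0.56), the source of endostatin. Among integrins Itgb8 (0.66) and Itga10 (0.61) varied most, and Lama2 (0.53) among laminins. Itgb8 ran from -0.37 to 2.66 in 129S1/SvImJ but only from 0.73 to 1.40 in C57BL/6J, and differences between groups in these members were correspondingly uncertain (Itgb8 0.09, 95% interval -0.71 to 0.89; Col9a3 -0.48, -1.85 to 0.90 between strains).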

How the data were processed

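The authors hybridised each gonad pair against the common pool on a two-colour Agilent array and read it with Feature Extraction 9.1.3.1. Per the file headers, the deposited intensity values of both channels (processed signals) were background-subtracted and dye-normalized by LOWESS. The deposited log2 table correlated with them at 0.991 to 0.999 per array over spots above background, with Cy5 over Cy3, and served as an alternative. No dye was swapped, so dye bias per probe remains in every gonad to pool ratio and cancels between groups.

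From these, log2(Cy5/Cy3) was taken per array without outlier spots, on the brightest probe of each gene, for genes with Cy5 well above background on at least 4 of 5 arrays of a group. Group means of all 20 arrays were fitted with limma 3.58.1 in R 4.3.3 (16 residual degrees of freedom), with Benjamini-Hochberg adjustment over 24057 genes in each comparison, and called at 0.05. The procedure was tested on simulated data. Pair correlations used permutation tests. The members, the companion and marker lists and the classes were chosen with earlier results of these data known. Genes named were those called, those of smallest p per family and comparison, extremes of ratio and spread, the fixed pairs and genes with disagreeing probes. The groups are those of the labels. Background correction, filter, probe, slide, the letter in the sample name, weights, centring and single arrays were varied. The number of arrays limits the precision (median SE of a strain difference 0.15). One member counted in the totals is not reported or plotted here. The files name no genome build, so no positions are given.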

Additional observations from a re-analysis of the deposited data

Results flagged for a closer look

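Among 50 named members, 12 of 199 sets of arrays of 1 genotype (6.03%) held an array far from the others by Dixon's criterion (critical value 0.71 for 5 arrays), where chance gives about 1 in 20. In 129S1/SvImJ, pair G3 read -0.051 for Col24a1 (others -0.57 to -0.54) and -0.079 for Lama3 (0.12 to 0.17). Pair A3 read -0.89 for Col4a2 (0.02 to 0.35) and -0.33 for Col4a5 (0.63 to 0.82), and pair D4 read -0.11 for Lamb2 (0.64 to 0.87). In C57BL/6J, pair K2 read -0.046 for Col4a6 (0.25 to 0.36) and 0.26 for Lamb2 (0.68 to 0.79). In (B6x129S1)F1, pair C2 read -0.31 for Col3a1 (-0.84 to -0.70), pair F2 read 0.52 for Col4a6 (0.27 to 0.31), and pair E1 read 1.21 for Itga6 (0.65 to 0.76) and 0.17 for Itgb7 (0.80 to 1.05). In (129S1xB6)F1, pair M6 read -2.27 for Itga10 (-0.19 to 0.42). The G3 value bears on the Col24a1 call, whose value without it is given with that gene.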

How the results depend on the processing

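The members called between strains numbered 7 to 11 under the alternatives and 8 to 10 leaving out 1 array, and those between the reciprocal hybrids 0 to 0 leaving out 1 array. Against C57BL/6J the 4 calls became 2 with the mean over probes, with slide as a block or with the sample letter as a block, and 9 with array weights (2 to 7 leaving out 1 array). Against 129S1/SvImJ the 3 calls became 1 with slide as a block (2 to 5 leaving out 1 array). Against the mean of the strains the 1 call became 0 without background subtraction and with slide or letter as a block (0 to 2 leaving out 1 array). The F test over the 4 groups called 8, and 6 to 10 leaving out 1 array. Among pairs, Col4a1 with Col4a2 passed under normexp (r = 0.56), and with deviations from group and slide means Lamb1 with Lamc1 no longer passed (0.57), while Col4a3 with Col4a4 (0.21) and Col3a1 with Col5a2 (0.061) reversed. Leaving out 1 array, r was 0.57 to 0.75 for Col1a1 with Col1a2, 0.53 to 0.84 for Lamb1 with Lamc1 and 0.31 to 0.65 for Col4a1 with Col4a2. Itga7 between strains reversed under normexp (-0.0086) and the mean over probes (-0.058), as did Sdc4 over probes (-0.037). Of the strain calls, Itga4 was lost without background subtraction and over probes (-0.17 in both), Col24a1 under normexp (-0.26), without background subtraction (-0.07) and over probes (-0.14), Col4a4 over probes (-0.15) and with array weights (-0.53, limma's adjusted p = 0.053), and Col12a1 with the letter block (1.08, 0.054). The letter block and a fit of only the arrays compared each also ended the calls of Col4a4 (limma's adjusted p = 0.119 and 0.135) and Col24a1 (0.073 and 0.113). Of the other genes, the letter block ended the calls of Loxl4, Egfl6, Thbs1, Smoc2 and Treml1, and the arrays compared alone those of Loxl4, Sdc4, Sdc2, Egfl6 and Smoc2. The causes were not tested. No paired analysis was possible because the labels give no replicate numbers shared between groups. Slides, which held arrays of several groups, were used as the block instead.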
